A study of Homo sapiens with 16 samples.

Results

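CD8_Tn-CCR7 is the deposited name of a cluster of T cells in LPA1-T22 (T22) and LPA1-T127 (T127), a pair of mouse mammary tumors that differ in sensitivity to the PARP inhibitor olaparib. Its cells were taken here by that deposited name alone, with each cell barcode shared between long-term pools counted once at its deepest copy. The cluster held 356 of 48824 cells. Of these, 81 of 25723 came from the long-term pools, 257 of 15094 from the short-term T22 pools and 18 of 8007 from the short-term T127 pools. Tumor chunks were grown in the mammary fat pad of female FVB mice bought at 6 weeks of age, which have their own immune system. The 8 long-term pools mixed T22 and T127 tumors from mice given vehicle or olaparib at 50 mg/kg daily for 20 days. A mouse carried either tumor alone or, in co-transplantation, 1 tumor of each kind in opposite fat pads. The 4 short-term T22 pools and the 4 short-term T127 pools mixed tumors from mice given vehicle or the same dose for 4 or 8 days. The tumor of origin of a cell is not given in the files used here. Vehicle and olaparib, or single strain and co-transplantation, were therefore not compared, and a pool is a capture of mixed tumors and not a replicate of a condition. The labels give the organism as human, but hosts and tumors were mice and the genes are mouse genes.

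CD8 T cells recognize peptides on MHC class I through the T cell receptor and the CD8 coreceptor, which is built from the chains encoded by Cd8a and Cd8b1, whereas helper and regulatory T cells carry CD4. Naive and central memory T cells express Ccr7, the chemokine receptor that guides them into lymph nodes, and Lef1 and Tcf7, transcription factors of the resting state. On activation these genes are commonly reduced, and CD8 T cells make granule proteins such as granzymes, perforin (Prf1) and Nkg7, and chemokines such as Ccl5. The name of the cluster carries both claims, CD8 and naive, and each was checked against the counts.

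The cells of the cluster held 461041 unique molecular identifiers (UMIs, 1 per captured mRNA) in the long-term pools and 2335394 in the T22 pools. The median cell had 5232 UMIs of 1606 genes and 8345 UMIs of 2347 genes, against medians of 3143 and 6972.5 UMIs in the other 4 T cell clusters. Whole pools held 34755906 to 44032925 UMIs in the long-term experiment and 40270841 to 42436039 in T22. Long-term pools 1 to 3 shared many barcodes (1 pair of pools shared 3939). Only in 1 pair of the 28, pools 1 and 2, were barcodes of CD8_Tn-CCR7 cells (3 barcodes) also found in the other pool. The number of the cluster's cells was the same before and after barcodes were counted once. The shallower copies left out for these 3 barcodes therefore bore another cluster name. Levels are UMIs summed over the cells of a cluster per 1000000 UMIs of those cells (CPM), and pool values are given for pools with at least 9 cells of the cluster, namely long-term pools 3, 5, 6, 7 and 8, in that order, and T22 pools 1 to 4. Intervals are exact 95% intervals and cover counting error only. The clusters were made by the authors from these same genes, so no difference between clusters is tested here.

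Among T cells, defined by the deposited names CD4_Tcm-TCF7, CD4_Treg-FOXP3, CD8_Tn-CCR7, Tgd and Tprf-MKI67, the cluster made up 5.20% in the long-term pools (81 of 1558 cells, 95% interval 4.15 to 6.42) and 7.33% in T22 (257 of 3505, 95% interval 6.49 to 8.25). The lowest, median and highest long-term pool had 0.820%, 5.55% and 6.98%, and the 4 T22 pools had 7.54%, 7.53%, 5.93% and 8.39%. Long-term pools 1, 2 and 4 were the low ones, with 5 cells between them, and pools 1 to 4 together had 2.75% (14 of 509) against 6.39% (67 of 1049) in pools 5 to 8. The T127 pools gave 4.63% (18 of 389, 95% interval 2.77 to 7.21). These 18 cells are described separately at the end, and the values that follow are from the long-term and T22 pools.

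The cells carried Cd8a and Cd8b1 and hardly any Cd4. Cd8a was at 662 CPM (95% interval 589 to 740.1) in the long-term pools and 719 CPM (95% interval 685 to 754) in T22. By pool it was 629.7, 409, 968, 734 and 453 CPM in the long-term and 690.5, 759.8, 674 and 739.8 CPM in the T22 experiment. Each of these pools lay above every pool of the other T cell clusters and of NK cells, where the highest was 101 CPM in the long-term and 88.8 CPM in the T22 experiment. Cd8b1 was at 850.2 CPM (95% interval 768 to 939) and 959 CPM (95% interval 919.8 to 999.7), and ranged over pools from 616 to 1040.0 CPM and from 901 to 1011.8 CPM. Its pools too lay above all pools of the other T cell clusters and of NK cells. Among 22 long-term and 19 T22 clusters, CD8_Tn-CCR7 had the highest level of both genes. The cluster next in order was that of plasmacytoid dendritic cells, which in the mouse are known to express CD8 chains. It had 100.1 and 292 CPM of Cd8a and 416 and 211 CPM of Cd8b1. CD4_Tcm-TCF7 was at 90.9 and 67.4 CPM of Cd8a. Cd4 had 0 UMIs in the long-term cells and 6 UMIs in 3 T22 cells (2.57 CPM, pools 6.70, 0, 2.09 and 1.55), against 67.6 and 47.8 CPM in CD4_Tcm-TCF7.

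Shares of cells with a UMI were compared after each cell had been thinned at random to 2000 UMIs, since deeper cells show more genes. A Cd8a or Cd8b1 UMI was then found in 71 of 79 cells (89.9%, 95% interval 81.0 to 95.5) of the long-term cluster, with 2 shallower cells left out, and in 241 of 257 cells (93.8%, 95% interval 90.1 to 96.4) of the T22 cluster, with none left out. Without thinning the shares were 93.8% of 81 and 99.2% of 257 cells. Both chains were seen in 44 of 79 cells (55.7%) and 159 of 257 cells (61.9%). Long-term pool 8 had the lowest Cd8a or Cd8b1 share (13 of 18 cells, 72.2%), followed by pool 5 (83.3%), whereas the others had 94.1% to 100% and the T22 pools 92.4% to 96.3%. No thinned cell of the cluster had a Cd4 UMI. A count of 0, taken as 3, allows a UMI in up to 3.80% of the long-term and 1.17% of the T22 cells (exact 95% upper limits 4.56% and 1.43%). These limits are on cells with a UMI and not on cells that express Cd4, since at this depth a Cd4 UMI was found in only 11.7% and 8.85% of CD4_Tcm-TCF7. Of the 3 unthinned T22 cells with Cd4, 2 also had a Cd8a or Cd8b1 UMI.

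Cells that should lack the CD8 chains set the background. At the same 2000 UMIs a Cd8a or Cd8b1 UMI was found in 2 of 172 cells (1.16%) of the long-term B cells (137 shallower cells left out, median of the kept cells 2489.5 UMIs before thinning), 2 of 169 endothelial cells and 5 of 6862 cells (0.0729%) of the malignant cells. In T22 the counts were 0 of 33 B cells (median 3112 UMIs), 0 of 75 endothelial cells and 4 of 1954 cells (0.205%) of the malignant cells. The cluster's kept cells had medians of 5321 and 8345 UMIs. Among lymphocytes the share was 2.96% and 0.518% in the gamma delta cluster Tgd, 6.07% and 2.60% in NK cells, and 10.3% in the T22 cells of the proliferating cluster Tprf-MKI67. In CD4_Tcm-TCF7, whose name gives it CD4, it was 167 of 836 cells (20.0%) and 267 of 2340 cells (11.4%), while Cd4 itself was found there in 11.7% and 8.85% of cells. The Cd8a or Cd8b1 share of CD4_Tcm-TCF7 was above that of B, endothelial and malignant cells.

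**Figure D1:**
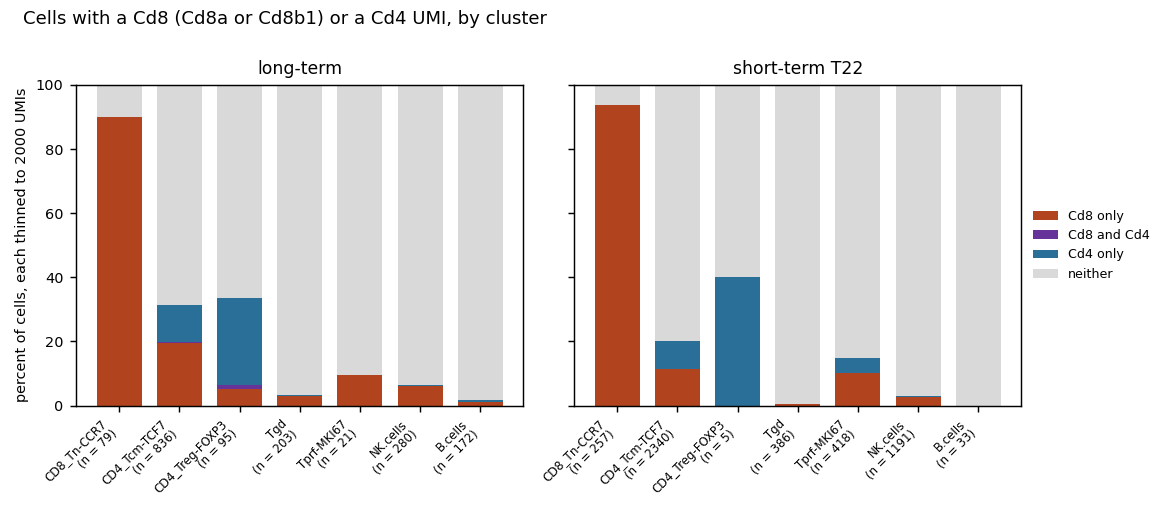
Percent of cells (vertical axis) of 7 deposited clusters with UMIs of Cd8a or Cd8b1 without Cd4, of Cd4 without either, of both or of neither, after thinning each cell to 2000 UMIs, in the long-term pools (left) and the T22 pools (right). CD8_Tn-CCR7 is almost filled by cells with Cd8 and no Cd4, and CD4_Tcm-TCF7 holds cells of either kind and a majority with neither.

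Counted by any Cd8a or Cd8b1 UMI, the cluster did not hold most of the T cells with CD8 chains. Of 248 thinned long-term T cells with a Cd8a or Cd8b1 UMI and no Cd4 UMI, 71 (28.6%, 95% interval 23.1 to 34.7) were named CD8_Tn-CCR7 and 164 (66.1%) CD4_Tcm-TCF7. Of 550 such T22 cells, 241 (43.8%, 95% interval 39.6 to 48.1) were named CD8_Tn-CCR7, 264 (48%) CD4_Tcm-TCF7 and 43 (7.82%) Tprf-MKI67. A carrier in CD8_Tn-CCR7 had a median of 3 Cd8 UMIs and one in CD4_Tcm-TCF7 a median of 2, in both experiments. At least 2 such UMIs were found in 83.1% and 85.5% of the CD8_Tn-CCR7 carriers, and in 73.7% and 62.9% of the CD4_Tcm-TCF7 carriers. These were 59 and 206 against 123 and 168 cells, here with or without a Cd4 UMI. Tprf-MKI67 had 1 and 34 such cells, Tgd 3 and 2, and CD4_Treg-FOXP3 2 long-term cells. At this limit the cluster held about as many T22 cells as the other T cell clusters together, and fewer in the long-term pools.

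The cells carried CD3 and the receptor alpha chain, with few UMIs of the delta chain. A UMI of Cd3d, Cd3e, Cd3g or Trac was found in 78 of 79 cells (98.7%) and 256 of 257 cells (99.6%) of the thinned cluster. NK cells had 37.9% and 30.0%. Trac, the constant region of the alpha chain, was at 985 CPM (95% interval 896 to 1079.6) and 714 CPM (95% interval 679.9 to 749), beside 833 and 418 CPM in CD4_Tcm-TCF7. Trdc, the constant region of the delta chain, was found in 2 of 79 and 4 of 257 cells, and Foxp3, the factor that defines regulatory T cells, in none. Of the NK receptor Ncr1, 3 of 79 and 2 of 257 cells had a UMI. Of the factors that set CD4 and CD8 lineage, Runx3, which represses Cd4 in CD8 cells, was at 262 and 418 CPM, against 182 and 338 CPM in CD4_Tcm-TCF7. Zbtb7b, which encodes the helper lineage factor ThPOK, had 0 UMIs in the long-term cells and was at 3.00 CPM in T22, beside 10.5 and 20.7 CPM. Cd40lg, the helper cell ligand of CD40, was at 60.7 and 16.7 CPM, beside 202 and 212 CPM, and 1 long-term cell held 53.6% of its UMIs in the cluster.

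The naive label was checked by Ccr7 and Lef1, and both were present. By level Ccr7 stood at rank 3 of 22 long-term and rank 4 of 19 T22 clusters, and Lef1 at rank 2 and rank 1. Ccr7 was at 262 CPM (95% interval 218 to 314) and 195 CPM (95% interval 178 to 214), with 337, 181, 434, 245 and 128 CPM in the long-term and 221, 170.1, 190.4 and 199 CPM in the T22 pools. The long-term pools overlapped with those of CD4_Tcm-TCF7, whose pooled level was 212 CPM, and the T22 pools all lay above them, at 73.1 CPM. B cells were higher, at 409 and 675 CPM. Lef1 was at 78.1 CPM (95% interval 54.7 to 108) and 60.4 CPM (95% interval 50.8 to 71.2), with 112, 108, 54.3, 122 and 51.3 CPM and 45.2, 59.9, 48.1 and 83.9 CPM by pool. CD4_Tcm-TCF7 had 241 and 47.9 CPM. In long-term pools 3, 5, 6, 7 and 8 its level was 342, 285, 233, 251 and 299 CPM, above that of the cluster in each, and in T22 the pools of both overlapped.

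After thinning, a UMI of Ccr7 or Lef1 was found in 30 of 79 cells (38.0%, 95% interval 27.3 to 49.6) and 81 of 257 cells (31.5%, 95% interval 25.9 to 37.6) of the cluster, and without thinning in 60.5% and 54.5%. By pool the thinned share was 22.2% to 50% in the 5 long-term and 25.8% to 38.4% in the 4 T22 pools. It was 38.8% and 16.4% in CD4_Tcm-TCF7, 5.71% and 6.72% in NK cells, 5.91% and 3.89% in Tgd, 35.5% and 69.7% in B cells, which express Ccr7 themselves, and 0.291% and 0.205% in malignant cells (median 18461.5 and 24802 UMIs before thinning). Singly, Ccr7 was found in 20 of 79 and 62 of 257 cells and Lef1 in 15 and 30.

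Most cells of the cluster carried cytotoxic genes, including most of those with a naive gene. A UMI of Nkg7, Ccl5, Gzmk, Gzmb, Gzma or Prf1 was found in 71 of 79 cells (89.9%, 95% interval 81.0 to 95.5) and 246 of 257 cells (95.7%, 95% interval 92.5 to 97.8) of thinned cells, and without thinning in 93.8% and 100%. NK cells had 100% and 96.6%, CD4_Tcm-TCF7 44.0% and 61.4%, B cells 5.81% and 6.06%, and malignant cells 1.44% and 2.00%. Naive and cytotoxic genes were found in the same cell in 28 of 79 cells (35.4%, 95% interval 25.0 to 47.0) and 79 of 257 cells (30.7%, 95% interval 25.2 to 36.8), against 13.2% and 8.85% of CD4_Tcm-TCF7. Only 2 long-term cells (2.53%) and 2 T22 cells (0.778%) had a naive gene and no cytotoxic gene, while 25.6% and 7.56% of CD4_Tcm-TCF7 did. These joint shares depended on the depth compared. Thinned to 1000 UMIs, 16.0% and 13.2% of the cluster's cells had both, and 3 of 81 (3.70%) and 13 of 257 (5.06%) had a naive gene alone. Without thinning, 58.0% and 54.5% had both, and 2 and 0 cells had a naive gene alone. Counting granzymes and Prf1 alone, the shares were 30 of 79 cells (38.0%) and 76 of 257 cells (29.6%), below 84.3% and 68.4% in NK cells, and 9 long-term and 22 T22 cells had one of these together with a naive gene.

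**Figure D2:**
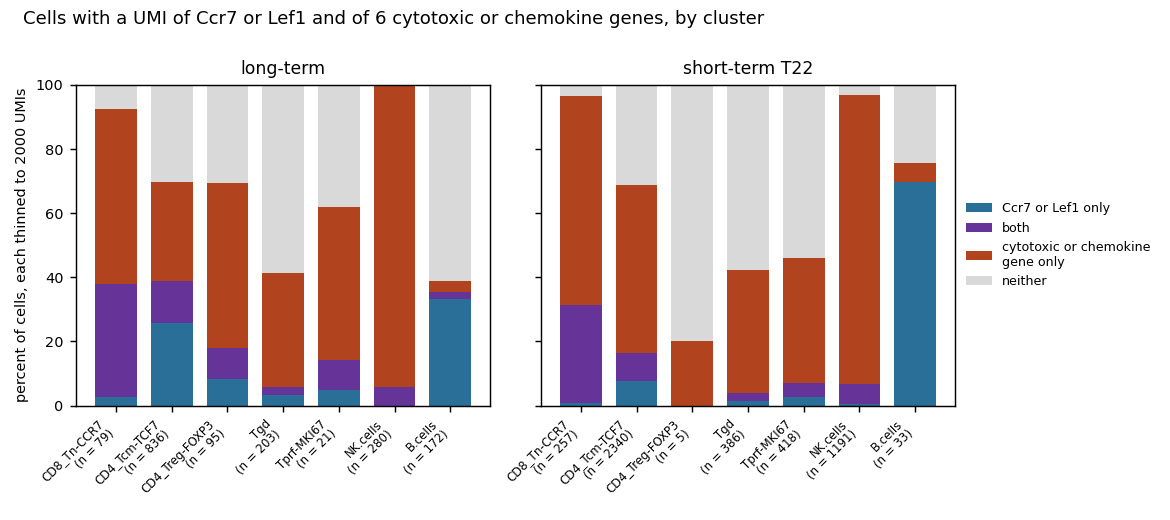
Percent of cells (vertical axis) of the same 7 clusters with a UMI of a naive gene (Ccr7 or Lef1) only, of a cytotoxic gene (Nkg7, Ccl5, Gzmk, Gzmb, Gzma or Prf1) only, of both or of neither, at 2000 UMIs a cell, in the long-term (left) and T22 pools (right). Cells with both make up 35.4% and 30.7% of CD8_Tn-CCR7, and cells with a naive gene only 2.53% and 0.778%.

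Nkg7, a protein of cytotoxic granules, was at 1655 CPM (95% interval 1539.6 to 1777) and 1384 CPM (95% interval 1337 to 1433), with 922, 1709, 1999, 1590.4 and 1445 CPM by long-term and 1488.2, 1275, 1320.0 and 1441 CPM by T22 pool. CD4_Tcm-TCF7 had 507 and 515 CPM and lay below in every pool, and NK cells had 2112 and 1505 CPM. The chemokine Ccl5 was at 1442 CPM (95% interval 1335 to 1556) and 2686 CPM (95% interval 2620.0 to 2753), from 449.8 to 2107 CPM over long-term and from 1863 to 3380.4 CPM over T22 pools, with long-term pool 3 lowest. Its T22 pools were all above those of CD4_Tcm-TCF7 and overlapped with those of NK cells. Gzmb (granzyme B) was spread unevenly over the long-term pools, with 359.9, 1336, 416, 171 and 2343 CPM, and 3 of 81 cells held 63.7% of its 488 UMIs. Over all long-term pools it was at 1058 CPM and without pool 8 at 622 CPM. T22 pools had 308, 162, 126 and 189.6 CPM, and no cell held more than 6.65% of the UMIs. Gzma was at 252 and 39.8 CPM, far below the 3564 and 3685 CPM of NK cells, and 1 cell held 79.3% of the long-term and 1 cell 58.1% of the T22 UMIs. Without long-term pool 8 Gzma was at 52.3 CPM and Prf1 at 61.0 in place of 113 CPM. Gzma without T22 pool 1 was at 16.7 CPM.

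Ly6c2, which encodes the surface protein Ly6C found on many memory CD8 T cells, set the cluster apart from the other T cells in both experiments. It was at 1427.2 CPM (95% interval 1320.2 to 1541) and 1083 CPM (95% interval 1042 to 1126), with 1349, 1047, 1772, 1480.3 and 1282.4 CPM by long-term and 1228, 852, 952 and 1268 CPM by T22 pool. Its UMIs came from 47 of 81 and 144 of 257 cells, and the pools lay above all pools of CD4_Tcm-TCF7 (182 and 494 CPM over all pools), of Tgd and of NK cells. Among all deposited clusters that of plasmacytoid dendritic cells had more Ly6c2, at 3035 and 2632 CPM. Eomes, a T-box factor of memory CD8 T and NK cells, was at 78.1 and 113 CPM, beside 51.0 and 33.1 CPM in CD4_Tcm-TCF7 and 205 and 376 CPM in NK cells. Cxcr3, a chemokine receptor of effector and memory T cells, was at 75.9 and 101 CPM, beside 41.4 and 69.9 CPM in CD4_Tcm-TCF7. Lower than in CD4_Tcm-TCF7 were Cxcr6, a receptor of tissue-dwelling T cells, at 282 and 277 against 482 and 617 CPM, and the costimulatory receptor Icos, at 195 and 281 against 371 and 875 CPM. The adhesion receptor Cd44, which is high on memory cells, was at 45.5 and 83.5 against 73.0 and 198 CPM. Klrg1, a receptor of terminal effector cells, had 0 UMIs in both experiments. Gzmk had 0 UMIs in the long-term cells and 22 UMIs (9.42 CPM) in T22.

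**Figure D3:**
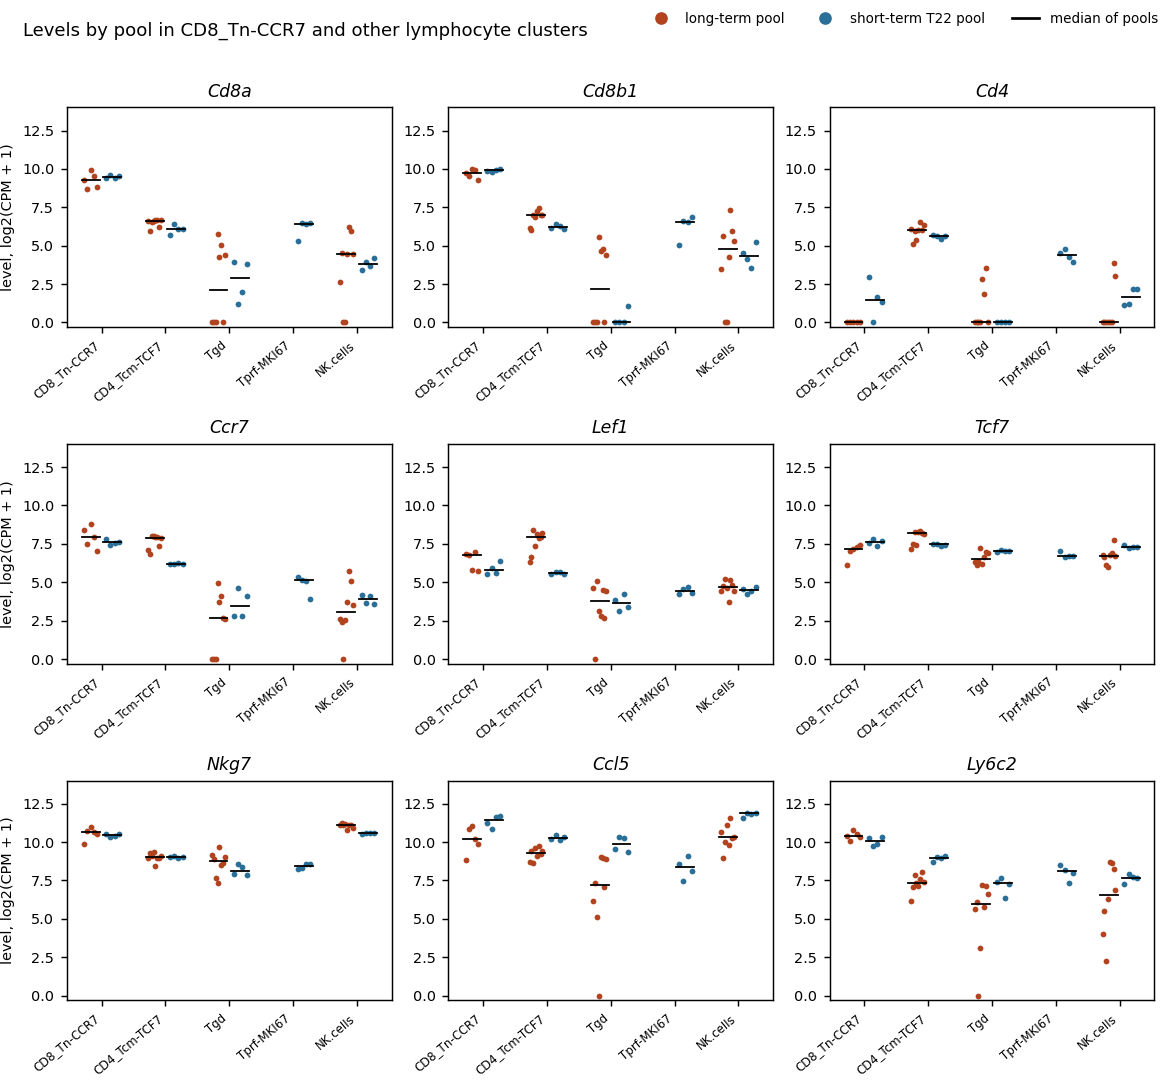
Level of 9 genes as log2(CPM + 1) (vertical axis) by deposited cluster, in long-term and T22 pools. Points are pools with at least 9 cells of the cluster and bars their median. CD8_Tn-CCR7 pools stand apart from the other plotted clusters for Cd8a, Cd8b1 and Ly6c2, and lie above CD4_Tcm-TCF7 for Nkg7. For Lef1 the T22 pools of both overlap, and in the long-term experiment only pools 1 and 2 of CD4_Tcm-TCF7, where the cluster has no point, lie as low as the cluster.

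Genes were compared across the whole table by the ratio of summed levels in CPM, with 1 CPM added on both sides for log2 ratios, over genes with at least 10 CPM on either side, and a ratio of 2 or more in either direction was counted. Against the other 4 T cell clusters pooled, 201 of 7249 long-term genes were higher (2.77%) and 834 lower (11.5%), and 97 of 7664 T22 genes were higher (1.27%) and 424 lower (5.53%). These shares are the background for the gene groups below. Fewer UMIs gave larger counts. Single T22 pools, with 478020 to 643407 UMIs of the cluster, had 165 to 227 genes higher and 619 to 860 lower. The 5 long-term pools had 612 to 1365 higher and 1678 to 2345 lower. Since the cluster held 461041 UMIs in the long-term and 2335394 in the T22 pools, the counts do not rank the experiments. The median log2 ratio over all genes was -0.13 and -0.12, so a group at about that value lies where the typical gene does. Ribosomal protein and mitochondrial UMIs made up 37.3% and 35.4% of the cluster's UMIs against 32.3% and 30.5% of the others'. Leaving them out of the totals moved ratios of CPM by 0.11 and 0.10 on the log2 scale and, since all levels then rise, let 8372 and 8421 genes past the minimum level. The long-term counts went from 201 higher and 834 lower (19.4% of them higher) to 431 higher and 981 lower (30.5% of them higher). In the 6863 genes with at least 10 CPM in both experiments, 41 genes were higher in both, 27.7% of the 148 long-term and 50.6% of the 81 T22 genes, and 228 were lower in both, 31.6% of 721 and 66.1% of 345. Only 5 genes lay past 2-fold in opposite directions.

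**Figure D4:**
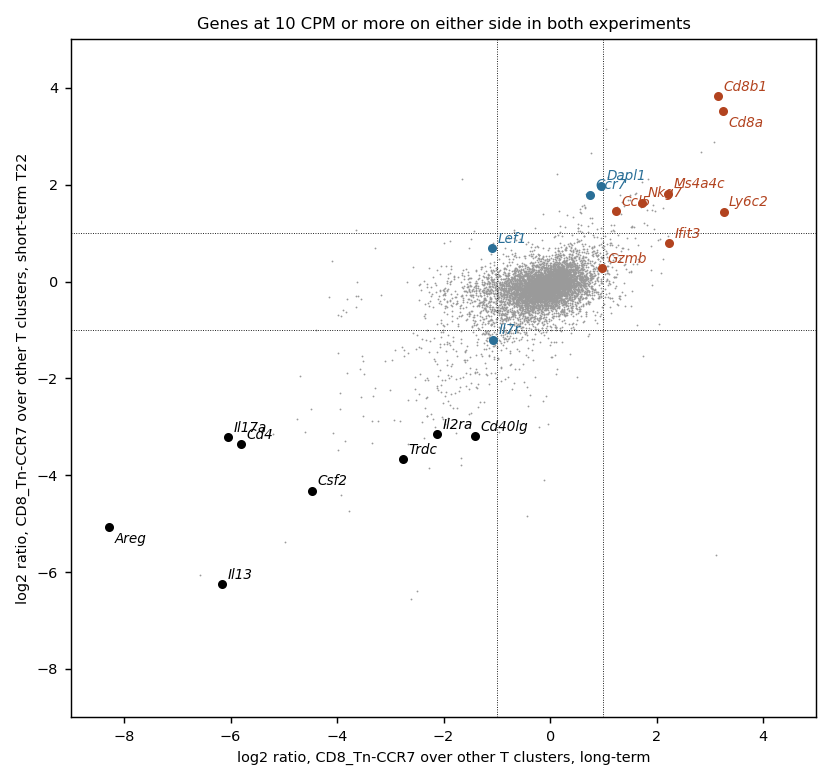
Log2 ratio of CD8_Tn-CCR7 to the other T cell clusters in the long-term pools (horizontal axis) and the T22 pools (vertical axis) for 6863 genes, with dotted lines at 2-fold in either direction. More genes lie past 2-fold on the lower than on the higher side, and Cd8a and Cd8b1 are far to the upper right.

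The 15 genes most above the other T cells in the long-term pools were taken among those with the same direction in T22. They also had at least 20 CPM on either side. T22 ratios above 1 were therefore built in for them. Of these 15, Ly6c2 was 9.62 (95% interval 8.69 to 10.6) times the level of the other T cells in the long-term pools and 2.72 (95% interval 2.61 to 2.84) times in T22. Cd8a was 9.66 (95% interval 8.31 to 11.2) and 11.7 (95% interval 10.9 to 12.5) times, and Cd8b1 8.95 (95% interval 7.86 to 10.2) and 14.4 (95% interval 13.5 to 15.3) times as high. The clusters were made from the same counts, so these ratios describe them and test nothing. Also 2-fold or more higher in both experiments were Ms4a4c, a membrane protein gene, at 4.73 and 3.85 times, and Gpr155 at 4.92 and 3.04 times. So were Gm19705 at 4.31 and 2.94, Ifi206 at 3.99 and 2.19, Hdgfl3 at 4.00 and 3.07, and Wdr95 at 4.29 and 3.01. The long-term ratios of Gpr155, Gm19705 and Wdr95 rested on 13, 14 and 11 UMIs (95% intervals 2.39 to 9.53, 2.18 to 8.04 and 1.96 to 8.66). Spin2c was at 5.17 and 2.03 times, and with 1 CPM added its T22 log2 ratio of 0.94 was below the 2-fold limit. The other 5 are induced by interferon or are Parp12, an interferon-induced PARP family member, and were below 2-fold in T22. Ifit3 was at 4.77 and 1.76 times, and Ifit3b at 4.57 and 1.43 (95% interval 0.930 to 2.13). Parp12 was at 4.78 and 1.14 (95% interval 0.783 to 1.60), Ifit1bl1 at 4.70 and 1.22 (95% interval 0.629 to 2.16), and Ifit2 at 3.81 and 1.19 (95% interval 0.889 to 1.56). Over the 5 long-term pools the log2 ratio was 2.57 to 3.65 for Ly6c2, 2.41 to 3.72 for Cd8a and 2.65 to 3.29 for Cd8b1, and the genes of lower level were less even. Ifit3 was at 0.46 and -0.18 in pools 3 and 5, from 6 and 3 UMIs, against 2.37 to 4.20 in pools 6 to 8. Ifit3b was at -0.77 in pool 3 from 1 UMI and Ifi206 at -0.10 in pool 5 from 2 UMIs. Gpr155, Gm19705 and Ifit1bl1 had 0 UMIs in pool 3, whose 9 cells give a floor of 67.5 CPM for 3 UMIs, above the 13.7, 7.82 and 7.82 CPM of the other T cells there, so that no direction could be read for them in that pool. The intervals above do not cover this spread between pools.

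The 15 genes most below the other T cells, taken by the same rule, included cytokines, granzymes and receptors known from other lymphocyte types. Their lower level in T22 was thus built in as a direction. Gzme, a granzyme, had 0 UMIs in the long-term cells against 371 CPM, at least 57.0-fold lower when 0 is taken as 3 UMIs. In T22 the level of the other T cells lay below that floor. In long-term pool 2, where the cluster had 2 cells, the other T cells had 1948 CPM of Gzme. The remaining long-term pools had 45.3 to 623 CPM. The growth factor amphiregulin (Areg) was at least 47.5-fold lower in the long-term pools and 0.0238 (95% interval 0.0109 to 0.0453) times the level of the others in T22, where all 9 UMIs came from 1 cell. The type 2 cytokine Il13 was at least 10.8 and 58.3-fold lower, and Il1rl1, the receptor of interleukin-33, at least 4.71 and 31.5-fold lower. Cd4 was at least 8.46-fold lower and, in T22, at 0.0721 (95% interval 0.0264 to 0.158) times. Il17a, the cytokine of type 17 T cells, was at 0.0104 (95% interval 0.000262 to 0.0578) times from 1 UMI and at 0.103 (95% interval 0.0773 to 0.135) times in T22, where 1 cell held 77.4% of its UMIs. Csf2, which encodes GM-CSF, was at 0.0313 (95% interval 0.000791 to 0.175) times from 1 UMI and 0.0380 (95% interval 0.0153 to 0.0784) times. Over all long-term pools the gamma delta variable gene Trdv4 was at least 14.6-fold and Cd200r1 at least 5.51-fold lower. Klrb1b was at least 3.98-fold, Pde5a at least 3.32-fold, Tmsb15a at least 5.34-fold and G430095P16Rik at least 3.10-fold lower there. For Tmsb15a the other T cells had 315 CPM in pool 2, where the cluster had 2 cells. In pools 3, 5, 6 and 7 they lay below the floor of 3 UMIs, so no direction could be read. For G430095P16Rik this held in every long-term pool. Among pools with at least 9 cells it also held for Klrb1b in pools 3, 5, 6 and 7 and for Pde5a in pools 3, 5, 7 and 8. The same was so for Il1rl1 in pools 3, 7 and 8, for Trdv4, Cd4 and Cd200r1 in pool 3, and for Il13 in pool 7. In T22 Tmsb15a was at 0.26 times, with all 4 UMIs from 1 cell. G430095P16Rik was at 0.465 (95% interval 0.258 to 0.778) times, with a log2 ratio (-0.995) short of 2-fold. Trdv4, Cd200r1, Klrb1b and Pde5a were 2-fold or more lower in T22. The NK receptor gene Klra7 was at 0.0285 (95% interval 0.000721 to 0.160) times, from 1 UMI. Leaving out 1 pool moved the ratios of Klra7, Areg and Il17a beyond the spread between pools. Without long-term pool 8 Klra7 had 0 UMIs and was at least 9.27-fold lower, and without T22 pool 3 Areg had 0 UMIs and was at least 93.0-fold lower. Without T22 pool 2 Il17a was at 0.0259 times the level of the others, from 9 UMIs.

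The naive genes did not move as one. Of 19 genes of naive and central memory T cells, 17 passed the minimum level in the long-term pools, of which 1 was 2-fold or more higher and 3 lower (median log2 ratio -0.22). In T22, 17 passed, with 4 higher and 2 lower (median 0.47), where the median of all genes was -0.12. The summed level was 0.817 (95% interval 0.771 to 0.865) times that of the other T cells in the long-term and 1.05 (95% interval 1.02 to 1.08) times in the T22 pools. Summed without Il7r, the interleukin-7 receptor gene, which is abundant and was lower in both experiments, the others were at 0.940 (95% interval 0.883 to 1.00) and 1.33 (95% interval 1.29 to 1.37) times. The long-term direction reversed with cells of at least 1000 detected genes (log2 ratio 0.011 in place of -0.29) and the T22 direction with a mean over cells (-0.12 in place of 0.069). Nsg2 was higher in both experiments, and Ccr7, Dapl1 and Cd27, a costimulatory receptor, in T22 alone. Il7r was at 416 and 357 CPM against 825 and 902 CPM in CD4_Tcm-TCF7. Igfbp4 was also lower in both, and Lef1 in the long-term pools. Tcf7, which encodes TCF-1, was at 139 and 197 CPM (CD4_Tcm-TCF7 274 and 174 CPM), and S1pr1, the receptor for leaving tissue, at 91.1 and 69.4 CPM (181 and 78.1 CPM).

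Of 20 cytotoxic genes, 19 passed the minimum level in the long-term pools, of which 3 were 2-fold or more higher and 1 lower (median log2 ratio 0.41). In T22, 18 passed, with 3 higher and 2 lower (median 0.34). Their summed level was 1.47 (95% interval 1.43 to 1.52) and 1.49 (95% interval 1.46 to 1.51) times that of the other T cells, and log2 ratios by pool and with each pool left out stayed positive. Nkg7 and Ccl5 were higher in both experiments, Gzmm in the long-term pools and Cst7, an inhibitor of granule proteases, in T22. Prf1 was lower in the long-term pools (113 CPM), and Gzma (39.8 CPM) and Tnf in T22. Of 23 activation and memory genes, 19 passed the minimum level in the long-term pools, of which 1 was 2-fold or more higher and 7 lower (median log2 ratio -0.49). In T22, 19 passed, with 2 higher and 7 lower (median -0.60). Ly6c2 was higher in both experiments and Eomes in T22. Cxcr6, Id2, Icos and Il2ra, the high-affinity chain of the interleukin-2 receptor, were lower in both. Of 14 inhibitory receptor and exhaustion genes, 10 passed the minimum level in the long-term pools, of which 0 were 2-fold or more higher and 4 lower (median log2 ratio -0.90). In T22, 7 passed, with 2 higher and 2 lower (median -0.02). Pdcd1, which encodes PD-1, was lower in both, at 58.6 and 33.4 CPM, as was Ctla4. Cd160 and Slamf6 were the higher ones in T22.

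Most gamma delta and regulatory T cell genes were lower than in the other T cells, and NK genes were lower in part. The other T cells include Tgd (207 long-term and 387 T22 cells) and CD4_Treg-FOXP3 (113 and 5 cells), named for such cells. The gamma delta direction, and the long-term regulatory T cell direction, were therefore in part built in. Of 10 gamma delta T cell genes, 9 passed the minimum level in the long-term pools, of which 0 were 2-fold or more higher and 8 lower (median log2 ratio -2.68). In T22, 10 passed, with 0 higher and 10 lower (median -3.23). Of 8 regulatory T cell genes, 8 passed the minimum level in the long-term pools, of which 0 were 2-fold or more higher and 7 lower (median log2 ratio -1.84). In T22, 7 passed, with 0 higher and 6 lower (median -1.96). Of 12 NK genes, 11 passed the minimum level in the long-term pools, of which 0 were 2-fold or more higher and 3 lower (median log2 ratio -0.73). In T22, 11 passed, with 1 higher and 7 lower (median -1.78). Eomes was the higher one. Of 15 genes of the T cell receptor complex, 14 passed the minimum level in the long-term pools, of which 0 were 2-fold or more higher and 1 lower (median log2 ratio 0.15). In T22, 14 passed, with 3 higher and 1 lower (median 0.23). Trac, Cd5 and Cd6 were the higher ones and Trat1 was lower in both experiments. Of 8 lineage factors, 7 passed the minimum level in the long-term pools, of which 0 were 2-fold or more higher and 2 lower (median log2 ratio -0.36). In T22, 8 passed, with 0 higher and 3 lower (median -0.0049). Gata3, a factor of helper cells, and Cd40lg were lower in both experiments and Zbtb7b in T22.

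Many interferon-stimulated genes were higher in the long-term cluster. Of 20 such genes, 20 passed the minimum level in the long-term pools, of which 10 were 2-fold or more higher and 0 lower (median log2 ratio 0.94). In T22, 19 passed, with 2 higher and 0 lower (median 0.39). The 10 long-term genes were Isg15, Isg20, Ifit1, Ifit3, Ifit1bl1, Bst2, Ifi206, Xaf1, Usp18 and Slfn1. In T22 the higher ones were Ifi206 and Slfn1. The summed level was 1.60 (95% interval 1.54 to 1.67) and 1.33 (95% interval 1.30 to 1.37) times that of the other T cells. It ranged over pools from 3334.7 to 6725 CPM in the long-term and from 2586 to 3349 CPM in the T22 cells. Isg15, a ubiquitin-like protein induced by interferon, was at 714 CPM (95% interval 639 to 795) and 162 CPM (95% interval 146 to 179), with 1057, 277, 434, 918 and 718 CPM by long-term pool, and 144, 143, 186 and 180.3 CPM by T22 pool. Long-term pool 5 was lowest and pool 3 highest, and all 5 lay above the 4 T22 pools. Isg15 was 2.18 (95% interval 1.93 to 2.45) and 0.959 (95% interval 0.861 to 1.07) times the level of the other T cells, and its long-term UMIs came from 46 of 81 cells. Of 16 cell cycle genes, 16 passed the minimum level in the long-term pools, of which 0 were 2-fold or more higher and 2 lower (median log2 ratio -0.33). In T22, 16 passed, with 0 higher and 0 lower (median -0.28). Mki67, a marker of dividing cells, was found in 5 of 79 cells (6.33%) and 37 of 257 cells (14.4%) of thinned cells. Of 16 immediate early genes, which respond to cell handling as well as to receptor signals, 16 passed the minimum level in the long-term pools, of which 0 were 2-fold or more higher and 3 lower (median log2 ratio -0.68). In T22, 16 passed, with 1 higher and 5 lower (median -0.69). Of 8 MHC class I genes, 8 passed the minimum level in the long-term pools, of which 0 were 2-fold or more higher and 0 lower (median log2 ratio 0.17). In T22, 8 passed, with 0 higher and 0 lower (median 0.08). Of 8 genes for contacts of T cells with other cells (Cd8a, Cd8b1, Cxcr6, Cd28, Cd226, Tnfrsf1b, Ctla4 and Itgal), 8 passed the minimum level in the long-term pools, of which 2 were 2-fold or more higher and 2 lower (median log2 ratio -0.17). In T22, 8 passed, with 2 higher and 2 lower (median 0.13). Cd8a and Cd8b1 were the higher and Cxcr6 and Ctla4 the lower ones in both. Of 101 ribosomal protein genes, 90 passed the minimum level in the long-term pools, of which 0 were 2-fold or more higher and 2 lower (median log2 ratio 0.20). In T22, 90 passed, with 0 higher and 0 lower (median 0.21). The 13 mitochondrial genes had medians of -0.14 and -0.03 over 5 tested.

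RNA of other cell types was counted in these cells, and of the marker lists that of red blood cells, hemoglobin genes, was highest in the long-term pools. The 3 erythroid markers summed to 5915 CPM there (pools 1619 to 8074) and to 0.428 CPM in T22, against 6525 and 16.5 CPM in the other T cells. A UMI of C1qa, C1qb or Lyz2, genes of macrophages, was found in 22 of 79 cells (27.8%) and 36 of 257 cells (14.0%) of thinned cluster cells, in 39.5% and 13.4% of CD4_Tcm-TCF7, in 29.3% and 14.3% of NK cells and in 17.9% and 6.29% of malignant cells. The 10 macrophage markers, all with UMIs, summed to 638 and 361 CPM (pools 525 to 966 and 316 to 467), against 984 and 475 CPM in the other T cells. The 4 MHC class II markers summed to 568 and 123 CPM against 746 and 226 CPM, and the 7 B cell markers, of which 1 and 4 were at 0, to 154 and 80.5 against 124 and 45.9 CPM. Fibroblast markers (106 and 75.8 CPM), malignant cell markers (65.1 and 42.0 CPM), endothelial markers (6.51 and 14.1 CPM) and neutrophil markers (21.7 and 2.57 CPM) were also summed, and 5 of 7 dendritic cell markers were at 0 in each experiment. The part of such RNA in the values above was not tested.

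Against CD4_Tcm-TCF7 alone, the largest T cell cluster, 215 of 7253 long-term genes were higher (2.96%) and 791 lower (10.9%), and 153 of 7637 T22 genes were higher (2.00%) and 400 lower (5.24%), with medians over all genes of -0.10 and -0.09. Of the 19 naive and central memory genes, 17 passed the minimum level in the long-term pools, of which 1 was 2-fold or more higher and 2 lower (median log2 ratio -0.37). In T22, 17 passed, with 3 higher and 2 lower (median 0.33). The summed ratio was 0.703 (95% interval 0.663 to 0.744) and 0.932 (95% interval 0.908 to 0.956), and without Il7r 0.757 (95% interval 0.710 to 0.806) and 1.17 (95% interval 1.13 to 1.20), so that the T22 direction turned. Of the cytotoxic genes, 19 passed the minimum level in the long-term pools, of which 4 were 2-fold or more higher and 0 lower (median log2 ratio 0.37). In T22, 18 passed, with 3 higher and 3 lower (median 0.18). Gzmb was among the 4 long-term ones, from the few cells named above, and its level without pool 8 (622 CPM) was less than 2-fold above the 420 CPM of CD4_Tcm-TCF7. Cell cycle genes parted from the comparison with all T cells, which includes Tprf-MKI67: 16 passed the minimum level in the long-term pools, of which 1 was 2-fold or more higher and 0 lower (median log2 ratio 0.14). In T22, 16 passed, with 9 higher and 0 lower (median 1.06). Of the interferon-stimulated genes, 20 passed the minimum level in the long-term pools, of which 7 were 2-fold or more higher and 0 lower (median log2 ratio 0.79). In T22, 19 passed, with 0 higher and 0 lower (median 0.31). The genes most above CD4_Tcm-TCF7, again among those with the same direction in T22, were largely those named already. Ly6c2 was at 7.86 (95% interval 7.07 to 8.74) and 2.19 (95% interval 2.10 to 2.29) times, Cd8a at 7.28 (95% interval 6.23 to 8.49) and 10.7 (95% interval 9.88 to 11.5) times and Cd8b1 at 6.55 and 13.0 times. Cmpk2, a mitochondrial kinase induced by interferon, was at 5.63 (95% interval 2.67 to 11.5) and 1.08 (95% interval 0.606 to 1.80) times.

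Against NK cells, 476 of 7180 long-term genes were higher (6.63%) and 794 lower (11.1%), and 183 of 7717 T22 genes were higher (2.37%) and 539 lower (6.98%), with medians over all genes of -0.08 and -0.16. Leaving ribosomal protein and mitochondrial UMIs out of the totals gave 928 higher and 831 lower (52.8% of them higher) in place of 37.5% in the long-term pools, and 299 higher and 534 lower (35.9% of them higher) in place of 25.3% in T22. Most T cell receptor genes were higher and most NK genes lower than in NK cells, and some naive genes were higher and some cytotoxic genes lower. Of the receptor genes, 13 passed the minimum level in the long-term pools, of which 8 were 2-fold or more higher and 0 lower (median log2 ratio 2.15). In T22, 13 passed, with 8 higher and 0 lower (median 1.89). Of the naive and central memory genes, 17 passed the minimum level in the long-term pools, of which 9 were 2-fold or more higher and 0 lower (median log2 ratio 1.08). In T22, 16 passed, with 6 higher and 0 lower (median 0.80). Of the cytotoxic genes, 19 passed the minimum level in the long-term pools, of which 1 was 2-fold or more higher and 10 lower (median log2 ratio -1.30). In T22, 18 passed, with 0 higher and 10 lower (median -1.39). Of the NK genes, 12 passed the minimum level in the long-term pools, of which 0 were 2-fold or more higher and 11 lower (median log2 ratio -3.45). In T22, 12 passed, with 0 higher and 11 lower (median -5.37). Cd8a was 28.8 (95% interval 20.9 to 40.7) and 53.8 (95% interval 44.8 to 65.1) times and Ccr7 18.9 (95% interval 12.3 to 30.1) and 14.0 (95% interval 11.5 to 17.2) times the NK level. S1pr1 was 19.0 (95% interval 9.10 to 44.3) and 7.48 (95% interval 5.73 to 9.84) times and Dapl1 20.3 (95% interval 12.6 to 34.2) and 66.2 (95% interval 34.0 to 148) times the NK level. Among genes with the same direction in T22, Tnfrsf4, which encodes OX40, was in the 10 highest of the long-term pools. However, 1 cell held 95% of its UMIs. Gzme was at least 351-fold lower than in long-term NK cells. The 10 lowest also held Klra7 and Klra8, receptors of NK cells, at 0.00780 (95% interval 0.000197 to 0.0437) times and at least 6.31-fold lower. Spp1, which encodes osteopontin, was at 0.0175 (95% interval 0.0132 to 0.0227) times.

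Since most T cells with any Cd8a or Cd8b1 UMI bore another name, the carriers of both names were compared. This choice was made after their numbers had been seen. Unthinned CD8_Tn-CCR7 cells with a Cd8a or Cd8b1 UMI and no Cd4 UMI (76 long-term and 253 T22 cells, median 5139.5 and 8282 UMIs) were set against such cells of CD4_Tcm-TCF7 (196 and 353 cells, 3079 and 7010 UMIs). Over all genes, 5.31% were 2-fold or more higher and 11.3% lower in the long-term pools (median log2 ratio -0.06), and 1.50% and 4.43% in T22 (median -0.07). Of the naive and central memory genes, 18 passed the minimum level in the long-term pools, with 0 higher and 4 lower (Lef1, S1pr1, Igfbp4 and Ccr9; median -0.64). In T22, 16 passed, with 0 higher and 1 lower, Il7r (median 0.011). Their summed ratio was 0.648 (95% interval 0.606 to 0.693) in the long-term and 0.861 (95% interval 0.833 to 0.890) in the T22 pools. Without Il7r it was 0.655 (95% interval 0.609 to 0.704) and 1.02 (95% interval 0.981 to 1.06), so that the T22 sum was below 1 through Il7r alone. Cytotoxic genes summed to 1.65 (95% interval 1.58 to 1.73) and 1.32 (95% interval 1.29 to 1.34), with 9 of 20 higher and 1 lower in the long-term pools and 1 of 18 in each direction in T22 (medians 0.94 and 0.32). Interferon-stimulated genes summed to 1.97 (95% interval 1.85 to 2.08) and 1.49 (95% interval 1.43 to 1.54), with 11 of 20 and 1 of 19 higher and 0 lower (medians 1.14 and 0.59). NK genes summed to 1.83 (95% interval 1.59 to 2.12) in the long-term pools, with 4 of 10 higher and 0 lower, and to 1.03 (95% interval 0.966 to 1.10) in T22, with 0 of 8 in either direction. The NK and cytotoxic lists both hold Gzma, and 1 cell had 92 of the 116 long-term Gzma UMIs of the whole cluster. The part of that cell in the long-term sums was not tested. Cell cycle genes were at 1.15 (95% interval 1.05 to 1.25) and 1.79 (95% interval 1.72 to 1.86), and mitochondrial genes at 0.688 and 0.829. B cell markers were at 1.52 (95% interval 1.08 to 2.13) and 0.976 (95% interval 0.797 to 1.19), macrophage markers at 0.615 (95% interval 0.532 to 0.709) and 0.696 (95% interval 0.637 to 0.760). MHC class II markers were at 0.766 and 0.324, malignant at 0.382 and 0.856, endothelial at 0.107 and 0.447, and neutrophil at 0.245 and 2.29 (95% interval 0.490 to 14.2). The part of such RNA was not tested. T cell receptor genes were near equal, at 0.975 (95% interval 0.937 to 1.01) and 1.04 (95% interval 1.02 to 1.07), and gamma delta genes were at 0.258 (95% interval 0.184 to 0.354) and 0.255 (95% interval 0.231 to 0.281).

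Gene by gene, Lef1 was at 0.295 (95% interval 0.201 to 0.421) times the level of the CD4_Tcm-TCF7 carriers in the long-term and 0.928 (95% interval 0.737 to 1.17) times in the T22 pools. Tcf7 was at 0.505 (95% interval 0.372 to 0.677) and 0.951 (95% interval 0.837 to 1.08) times, and Klf2, a factor of resting T cells that maintains S1pr1, at 0.568 (95% interval 0.489 to 0.658) and 1.05 (95% interval 0.949 to 1.17) times. Il7r was at 0.613 (95% interval 0.517 to 0.724) and 0.420 (95% interval 0.387 to 0.456) times. Ccr7 was at 0.905 (95% interval 0.719 to 1.13) and 1.40 (95% interval 1.22 to 1.61) times, so that it was higher in T22 and within counting error of equal in the long-term pools. On the other side, Ly6c2 was at 3.30 (95% interval 2.89 to 3.77) and 2.51 (95% interval 2.34 to 2.70) times and Nkg7 at 2.07 (95% interval 1.85 to 2.31) and 2.05 (95% interval 1.93 to 2.17) times. Gzmb was at 13.7 (95% interval 10.4 to 18.5) times in the long-term pools, where 3 cells held most of its UMIs, and at 1.49 (95% interval 1.30 to 1.72) times in T22. Cxcr3 was at 1.77 (95% interval 1.05 to 3.01) and 2.11 (95% interval 1.69 to 2.65) times and Eomes at 1.53 (95% interval 0.929 to 2.52) and 1.81 (95% interval 1.48 to 2.21) times. Cxcr6 was lower at 0.518 (95% interval 0.418 to 0.637) and 0.432 (95% interval 0.394 to 0.473) times, and Icos at 0.519 (95% interval 0.404 to 0.662) and 0.367 (95% interval 0.336 to 0.401) times. Top2a, a gene of dividing cells, was at 0.736 (95% interval 0.520 to 1.03) and 2.21 (95% interval 1.97 to 2.48) times.

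**Figure D5:**
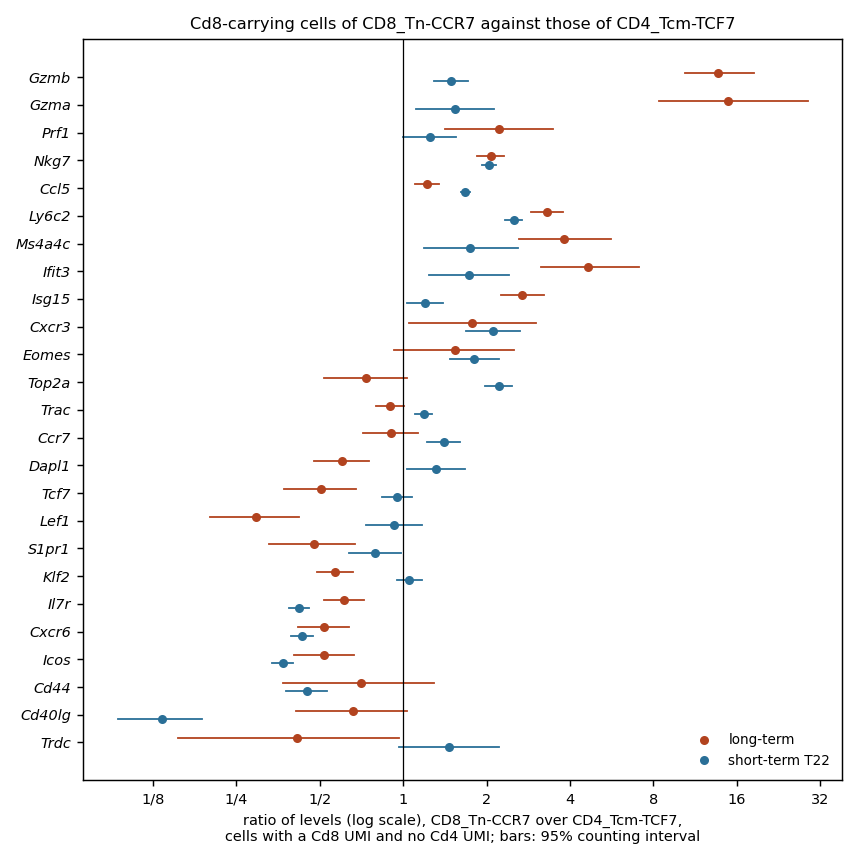
Ratio of the level in CD8_Tn-CCR7 to that in CD4_Tcm-TCF7 (log axis) for 25 genes, among cells with a Cd8a or Cd8b1 UMI and no Cd4 UMI, in the long-term and T22 pools. Bars are 95% counting intervals. Ly6c2 and Nkg7 lie above 1 and Il7r, Cxcr6 and Icos below 1 in both experiments, while Ccr7 lies above 1 in T22 alone.

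Inside the cluster, thinned cells with a UMI of Ccr7 or Lef1 (30 long-term and 81 T22 cells) were set against those without (49 and 176 cells). Which cells show such a UMI depends on the random thinning, so the ratios of a second draw, added after the data were seen, are given beside those of the first. Cell cycle genes were at 0.380 (95% interval 0.273 to 0.519) and 0.355 (95% interval 0.298 to 0.421) times in the cells with a naive gene, and at 0.508 and 0.486 times in the second draw. Gamma delta genes were at 0.117 (95% interval 0.0135 to 0.463) and 0.362 (95% interval 0.195 to 0.630) times (0.0450 and 0.365 in the second draw), from 2 and 15 UMIs. Interferon-stimulated genes were at 1.33 (95% interval 1.16 to 1.52) and 1.41 (95% interval 1.28 to 1.56) times (1.15 and 1.44), with Isg15 at 1.50 (95% interval 1.03 to 2.18) and 2.21 (95% interval 1.49 to 3.30) times (1.62 and 2.17). In the long-term cells markers of other cell types were also higher beside a naive gene. MHC class II markers were at 1.88 (95% interval 1.28 to 2.75) times (1.52 in the second draw), macrophage markers at 1.60 (95% interval 1.08 to 2.39) times (1.17) and erythroid markers at 1.46 (95% interval 1.29 to 1.64) times (1.32). In T22 the MHC class II and macrophage markers were at 0.684 (95% interval 0.372 to 1.20) and 0.847 (95% interval 0.604 to 1.17) times (1.27 and 0.820), and erythroid markers had 0 UMIs. The part of this RNA in the ratios was not tested. Regulatory T cell genes were at 0.304 (95% interval 0.166 to 0.522) and 0.456 (95% interval 0.286 to 0.700) times (0.866 and 0.400). Cytotoxic genes were at 0.917 (95% interval 0.820 to 1.03) and 0.747 (95% interval 0.700 to 0.796) times (0.657 and 0.598). Among them the long-term ratios of Ccl5, Gzmb and Nkg7 changed direction. Ccl5 went from 1.27 (95% interval 0.998 to 1.61) to 0.431 (95% interval 0.316 to 0.579). Gzmb went from 1.17 (95% interval 0.786 to 1.74) to 0.116 (95% interval 0.0488 to 0.238). Nkg7 went from 1.06 (95% interval 0.815 to 1.38) to 0.657 (95% interval 0.499 to 0.859). In T22 Ccl5 was at 0.602 (95% interval 0.540 to 0.670) and 0.343 times. The other naive and central memory genes were at 1.57 (95% interval 1.30 to 1.91) times in the long-term cells (1.28 in the second draw), and at 1.10 (95% interval 0.975 to 1.23) times in T22, where the second draw gave 0.981. Cd8a was at 1.20 (95% interval 0.793 to 1.80) and 0.801 (95% interval 0.636 to 1.00) times. In the second draw it was at 1.42 (95% interval 0.964 to 2.09) and 0.648 (95% interval 0.505 to 0.825) times. The T22 interval thus included 1 in the first draw alone, and the long-term interval in both.

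Between experiments, 349 of 7448 genes were 2-fold or more higher in the long-term than in the T22 cells of the cluster (4.69%) and 1484 lower (19.9%), with a median log2 ratio over all genes of -0.23. The long-term cells held 461041 and the T22 cells 2335394 UMIs, and the part of this unequal depth in the counts was not tested. The experiments differ in tumors, duration and captures, which cannot be told apart, so ratios are given beside the same ratios in CD4_Tcm-TCF7 and NK cells. Hemoglobin set the experiments apart, and Hbb-bs was at 3614 CPM in the long-term cells, in all 81 of them, and at 0.428 CPM in T22. CD4_Tcm-TCF7 had 4582 and 0.243 CPM and NK cells 2247 and 0.108 CPM. Isg15 was 4.40 (95% interval 3.78 to 5.11) times as high in the long-term cluster (ratio 1.86 in CD4_Tcm-TCF7 and 1.95 in NK cells). Ifit3 was 5.01 (95% interval 3.73 to 6.73) times (1.85 in CD4_Tcm-TCF7 and 1.49 in NK cells), and Ifit1 3.14 (95% interval 2.15 to 4.54) times (1.02 in CD4_Tcm-TCF7 and 0.936 in NK cells). The interferon-stimulated list as a whole was at 1.88 (95% interval 1.80 to 1.97) times, against 1.40 and 1.36. Gzmb was 5.30 (95% interval 4.66 to 6.04) times as high (2.42 in CD4_Tcm-TCF7 and 6.02 in NK cells), and 3 cells held most of its long-term UMIs. Gzmc, Gzmf and Ccl1 UMIs of the long-term cluster came almost wholly from single cells, with 91.3%, 100% and 99.6% in 1 cell each. Dapl1 was 3.55 (95% interval 2.74 to 4.58) times as high (11.3 in CD4_Tcm-TCF7 and 11.5 in NK cells). The 4 MHC class II markers were at 4.62 (95% interval 3.90 to 5.49) times (3.23 in CD4_Tcm-TCF7 and 1.86 in NK cells) and the macrophage markers at 1.77 (95% interval 1.54 to 2.02) times (2.08 and 1.47). Their part in these ratios was not tested.

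Lower in the long-term cluster were Mki67, at 0.223 (95% interval 0.149 to 0.322) times the T22 level (0.672 in CD4_Tcm-TCF7 and 0.391 in NK cells), and Top2a, at 0.361 (95% interval 0.278 to 0.461) times (1.20 in CD4_Tcm-TCF7 and 0.526 in NK cells). By pool Mki67 was 0, 48.2, 109, 110.1 and 42.7 CPM in the long-term and 313, 343, 328 and 194 CPM in the T22 cells, and all T22 pools were higher. Itgae, which encodes the integrin CD103 of tissue-resident T cells, was at 0.219 (95% interval 0.142 to 0.324) times (0.245 in CD4_Tcm-TCF7 and 0.160 in NK cells). Il2rb, a receptor chain for interleukin-2 and interleukin-15, was at 0.407 (95% interval 0.314 to 0.521) times (0.313 in CD4_Tcm-TCF7 and 0.424 in NK cells). Thy1 was at 0.285 (95% interval 0.202 to 0.393) times (0.297 in CD4_Tcm-TCF7 and 0.650 in NK cells) and Ccl5 at 0.537 (95% interval 0.495 to 0.582) times (0.511 in CD4_Tcm-TCF7 and 0.393 in NK cells). The naive and central memory list was at 0.985 (95% interval 0.926 to 1.05) times (1.31 in CD4_Tcm-TCF7 and 0.712 in NK cells) and the cytotoxic list at 1.13 (95% interval 1.10 to 1.17) times (0.993 and 1.17). Cd8a was at 0.920 (95% interval 0.812 to 1.04) times (1.35 in CD4_Tcm-TCF7 and 1.72 in NK cells) and Cd8b1 at 0.886 (95% interval 0.794 to 0.987) times (1.76 and 1.75). The coreceptor genes thus differed little between experiments in which Mki67, Isg15 and the hemoglobin genes differed several-fold. Cells were given this name by Cd8 expression in both experiments, so near-equal Cd8 levels are in part built in.

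The study listed 25 genes for this cluster, 13 of them ribosomal protein genes. In the files, 17 of the 25 were at their highest level in CD8_Tn-CCR7 among the 22 long-term clusters and 21 among the 19 T22 clusters. Among T cell clusters alone the counts were 21 and 23. The list holds Cd8a, Cd8b1, Cd3d, Nkg7, Ctsw and Hcst and was chosen on these cells, so the match is not independent evidence. In the 18 cells of the T127 pools, Cd8a was at 581 CPM (95% interval 445 to 744) with UMIs in 14 cells, Cd8b1 at 581 CPM in 13 cells and Cd4 at 84.3 CPM from 9 UMIs of 2 cells. Ccr7 was found in 10 of them (449.6 CPM) and Lef1 in 8 (169 CPM), beside Nkg7 in 16 (1414 CPM), Gzmb in 9 (1443 CPM) and Ccl5 in 7 (1358 CPM). Mki67 and Gzmk had 0 UMIs there. These counts are of unthinned cells. At 2000 UMIs a cell, 13 of the 18 had a Cd8a or Cd8b1 UMI, 8 a Ccr7 or Lef1 UMI and 16 a cytotoxic gene. With 18 cells no comparison with the other pools was made.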

How the data were processed

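Tumors were dissociated, tagged by sample, pooled and captured as single cells on the 10x Genomics Chromium platform. The deposited values are UMI counts, which the authors made with Cell Ranger 6.0.0 on mouse build GRCm38 (tools and build from the submitters' processing notes). They hold 32285 genes for each cell of 16 pools, with a table of the authors' cluster names. The authors removed doublets with Scrublet, and no doublet caller was run again.

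Counts were summed over the cells of a cluster within an experiment and scaled to counts per 1000000 (CPM). Since pools mix conditions and clusters were made from the same counts, no p-value was computed. Ratios carry exact 95% conditional binomial intervals, levels exact Poisson and shares exact binomial (Clopper-Pearson) intervals, all of counting error only. Log2 ratios used a pseudocount of 1 CPM and genes with at least 10 CPM on either side. Shares of cells used cells thinned to 2000 UMIs. Genes named are those of the lists plus the 15 most above and the 15 most below the other T cell clusters in the long-term pools with the same direction in T22, and the 10 on each side against NK cells and CD4_Tcm-TCF7, with at least 20 CPM. The text gives from the 10 those not described before. Some withheld items are not reported here, and the naive label was checked by Ccr7 or Lef1 alone. The members and lists were chosen with earlier results of these data known. The alternatives were at least 1000 detected genes a cell, no top 5% of cells by UMIs, all barcode copies, each pool left out, thinning to 1000 UMIs or none, at least 2 UMIs, a pseudocount of 10 CPM, no minimum or 50 CPM, means over cells, no ribosomal protein and mitochondrial UMIs, and all cells as the denominator. Calculations ran in Python 3.11.15 with pandas 2.3.3, numpy 2.4.6, matplotlib 3.10.9 and scipy 1.17.1 and were tested on simulated data.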

Additional observations from a re-analysis of the deposited data

Results flagged for a closer look

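Each of 36 values was compared over the pools with at least 9 cells of the cluster (5 long-term and 4 T22 pools, with the percent of T cells over all 8 long-term pools) in each experiment, and 7 had 1 pool far from the others by Dixon's criterion, 2 in the long-term and 5 in the T22 experiment. Chance alone gives about 1 such pool in 20 sets. The cause of none was tested. Ratios are against the other T cell clusters pooled.

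In long-term pool 3, 55.6% of the thinned CD8_Tn-CCR7 cells carried a cytotoxic gene, against 88.2% to 100% in the other 4 pools, and this pool was also the lowest for Ccl5. It held 9 cells, and in a second random draw of their UMIs the share was 66.7%, against 83.3% to 100%. The 19 naive and central memory genes summed to a log2 ratio of -0.0836 in T22 pool 3, against 0.0990 to 0.125 in the other pools.

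The remaining 5 were single genes with 0 UMIs in the cluster in 1 or more of the pools compared. A log2 ratio at 0 UMIs is set by the pseudocount and by the level of the other T cells, so that these values show no difference between pools by themselves. Gzme (-1.18 in T22 pool 3, 0 in the others) had 0 UMIs in the cluster in every T22 pool. Areg had 9 UMIs in T22 pool 3, all from 1 cell (-3.32), and 0 in the other 3 pools (-7.37 to -7.17). Csf2 had 0 UMIs in T22 pool 4 (-6.67) and 2 or 3 in each of the others (-4.01 to -3.55). G430095P16Rik, a gene listed among those most below the other T cells, had 0 UMIs in all 5 long-term pools (-4.02 in pool 8, -4.72 to -4.54 in the others). In T22 it had 0 UMIs in pool 3 (-3.84) and 5 in each of the others (-0.77 to -0.62).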

How the results depend on the processing

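The cluster had few cells in the long-term pools, so 1 cell can set the level of a gene there, and genes under the minimum level were not described. No paired analysis was possible because equal pool numbers of the experiments mark different captures, and comparisons between clusters, which do share pools, are ratios of counts summed over the pools and carry no test. Ratios within pools are given for some genes and lists, while the cluster's percent of T cells ran from 0.820 to 6.98 over the long-term pools. A comparison inside the cluster of cells with Cd4 against cells with Cd8 chains was not run, because at most 1 cell carried Cd4 without a Cd8 chain. Of the values that answer a comparison, 318 stayed under the alternatives, 60 moved and 2 reversed. Staying meant within the spread between pools or, for gene counts, within 1.5 times. The 318 include all those with 1 pool left out. Of the values of single genes 886 stayed and 42 moved.

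Leaving out 1 of several similar pools shifts a share or summed list by less than the spread between them. That such values stayed was therefore close to built in and decides little. Leaving out each pool in turn moved none of the values that answer a comparison. The cluster's percent of T cells was then 4.85 to 5.57 in the long-term and 6.98 to 7.82 in the T22 pools, the percent of its cells with a Cd8a or Cd8b1 UMI 86.9 to 95.1 and 93.1 to 94.2, with Ccr7 or Lef1 35.8 to 42.6 and 28.8 to 33.5, and with a cytotoxic gene 88.1 to 94.3 and 94.8 to 97.4. The log2 ratio of the summed naive and central memory genes to the other T cells was -0.33 to -0.20 and 0.049 to 0.111, and that of the cytotoxic genes 0.44 to 0.60 and 0.50 to 0.65. Genes higher than in the other T cells numbered 201 to 264 and 99 to 104, and lower ones 841 to 960 and 436 to 479.

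Both reversals were of the naive and central memory genes, to 0.0110 in the long-term pools with cells of at least 1000 detected genes, and to -0.117 in T22 with a mean over cells of each cell's CPM, and this T22 ratio moved to 0.173 without ribosomal protein and mitochondrial UMIs. As a percent of all cells the cluster was 0.315% and 1.70%. Thinned to 1000 UMIs, 77.8% and 78.2% of its cells had a Cd8a or Cd8b1 UMI, 19.8% and 18.3% Ccr7 or Lef1 and, in T22, 82.1% a cytotoxic gene. With at least 2 UMIs required, the Cd8 shares were 74.7% and 80.2%, the Ccr7 or Lef1 shares 17.7% and 13.6% and the T22 cytotoxic share 84.4%. Without thinning, the Ccr7 or Lef1 shares were 60.5% and 54.5%, and in T22 the Cd8 share was 99.2%, the cytotoxic share 100% and the share with Cd4 and no Cd8 chain 0.389%. Fewer UMIs a cell leave fewer cells with any gene by construction. A second random draw of 2000 UMIs a cell gave Cd8 shares of 84.8% and 94.2%, Ccr7 or Lef1 shares of 41.8% and 29.6%, cytotoxic shares of 89.9% and 95.3%, and 0.389% of T22 cells with Cd4 and no Cd8 chain.

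Counts of genes past 2-fold followed the pseudocount and the minimum level. With a pseudocount of 10 CPM, 58 long-term genes were higher and 303 lower than in the other T cells, 57 and 271 against CD4_Tcm-TCF7, and 169 and 386 against NK cells, and in T22 the numbers were 45 and 215, 60 and 191, and 101 and 302. With no minimum level they were 810 and 2785, 807 and 2761, and 1613 and 2557 in the long-term pools, and 218 and 1039, 293 and 1040, and 463 and 1228 in T22. With a minimum of 50 CPM they were 43 and 161, 47 and 117, and 100 and 193, and in T22 44 and 136, 51 and 127, and 65 and 210. Without ribosomal protein and mitochondrial UMIs, which moved ratios by 0.07 to 0.18 on the log2 scale and let more genes past the minimum level, 431 genes were higher and 981 lower, 418 and 1019, and 928 and 831 in the long-term pools, and 147 and 445, 221 and 446, and 299 and 534 in T22.

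Added after the data were seen were long-term pools 5 to 8 alone, hemoglobin left out of the totals, cluster cells with a Cd8a or Cd8b1 UMI alone, the second draw, the comparison of CD8 carriers by name, the naive and central memory genes without Il7r and the comparison between experiments.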
